A study of Mus musculus with 17 samples.

Results

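Zp1, Zp2 and Zp3 encode the glycoproteins of the mouse zona pellucida, the coat around the egg, and Figla and Nobox encode transcription factors of the oocyte that act upstream of oocyte genes. The probe sets that the platform annotates to one of these 5 genes and to no other gene numbered 6 of the 12488 on the array (5 of 8251 annotated genes), with 2 for Zp2 and 1 for each of the other genes. All 6 passed the filter on dim signals that left 8067 probe sets for testing. The series follows the mouse from egg to blastocyst on 17 Affymetrix MG-U74Av2 arrays, with 4 arrays for oocytes, 3 for the 1-cell stage, 3 for the 2-cell stage, 4 for the 8-cell stage and 3 for blastocysts. Each sample's total RNA went through 2 rounds of in vitro transcription, per the labels. Strain, age, genotype, treatment, the maturation state of the oocytes and the number of animals behind each array are not stated in the sources used here, so p-values reflect the spread among the arrays of a stage and nothing else, and that spread may be technical.

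ZP2 and ZP3 form the filaments of the zona and ZP1 crosslinks them. The coat is laid down while the oocyte grows, binds sperm at fertilisation, is altered after fertilisation through the cleavage of ZP2, and stays around the embryo until the blastocyst hatches. FIGLA is a basic helix-loop-helix protein that binds E-box elements in zona promoters together with an E protein, and mice without it do not form follicles. NOBOX is a homeobox protein needed for the growth of oocytes beyond the primordial follicle.

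RefSeq promoter sequences (mouse build GRCm38.p6) matched 3 of the 5 genes. The 250 bases before the start that the RefSeq promoter table uses for each gene are shown because FIGLA is known to act through the E-box, and they are written 5′ to 3′ on the strand of the gene. Capitals mark every match to CANNTG, which reads as CANNTG on both strands.
Zp3, chr5:135979855-135980104, plus strand: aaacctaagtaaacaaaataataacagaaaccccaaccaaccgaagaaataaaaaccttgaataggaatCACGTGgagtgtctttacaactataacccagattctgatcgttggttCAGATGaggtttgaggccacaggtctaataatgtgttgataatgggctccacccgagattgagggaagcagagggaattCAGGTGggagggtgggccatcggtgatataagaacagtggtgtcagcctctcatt
Figla, chr6:86016941-86017190, plus strand: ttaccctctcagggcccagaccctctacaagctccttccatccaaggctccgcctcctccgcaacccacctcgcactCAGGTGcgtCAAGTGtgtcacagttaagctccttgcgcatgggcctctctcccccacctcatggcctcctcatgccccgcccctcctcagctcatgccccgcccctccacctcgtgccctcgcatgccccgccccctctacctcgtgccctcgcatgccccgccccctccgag
Nobox, chr6:43309555-43309804, minus strand: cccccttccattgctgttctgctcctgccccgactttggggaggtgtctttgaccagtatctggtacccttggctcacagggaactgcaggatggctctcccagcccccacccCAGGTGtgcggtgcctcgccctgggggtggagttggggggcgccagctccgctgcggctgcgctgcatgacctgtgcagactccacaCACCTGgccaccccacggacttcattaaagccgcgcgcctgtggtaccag

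The Zp3 window ends where the RefSeq gene begins, whereas the Figla and Nobox windows lie inside the outer limits of their RefSeq genes, so that another annotated start lies further upstream. Counting back from the base just before the start used, the Zp3 window held 3 E-boxes, whose letters are CACGTG at -181 to -176, CAGATG at -134 to -129 and CAGGTG at -55 to -50. Figla had 2, with CAGGTG at -173 to -168 and CAAGTG at -164 to -159, and Nobox had 2, with CAGGTG at -137 to -132 and CACCTG at -50 to -45. The E-box is short and common: 66.2% of the 32851 promoters in the RefSeq table held at least 1 in the same window, 31.8% held at least 2 and 12.2% held at least 3. The letters TAATTG and TAATTA, which NOBOX binds, and TATAAA were searched on both strands and were not in these 3 windows. They occurred in 7.17%, 4.84% and 12.4% of all promoters in the table. These matches describe letters and show no binding.

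Within a stage, arrays had correlations of 0.950 to 0.982 over probe sets (which are not independent replicates), against 0.850 to 0.926 for the best match of an array in another stage. Of 11 oocyte markers, 7 had a probe set of their own, and all 7 had a mean signal above 41.1, the filter value, on oocyte arrays, against 1 of 7 on blastocyst arrays. Markers of cumulus and granulosa cells, which surround the oocyte in the follicle, were mostly dim in oocytes. Of the 11 on the array, 4 had a mean signal above 41.1 on oocyte arrays, and 3 passed the filter over all arrays. The summed signal of all 11 was 380 to 444 on oocyte arrays, 352 to 463 on 1-cell arrays, 348 to 415 on 2-cell arrays, 818 to 1014 on 8-cell arrays and 528 to 552 on blastocyst arrays. At the 8-cell stage Nr5a2, a nuclear receptor gene that embryos also express, averaged 647 ± 120.1 of this sum. In oocytes the gonadotropin receptor gene Fshr, which passed the filter, averaged 123 ± 29.5 (SD, n = 4), and the granulosa hormone gene Amh, which did not, averaged 15.1. Inha, which did not pass either, averaged 46.9 ± 35.8 in oocytes and 12.3 ± 1.90 in 1-cell embryos. Fshr averaged 117 ± 32.6 and Amh 15.5 in 1-cell embryos. Their part in the results below was not tested. In such samples, fewer cells of a type and less RNA per cell cannot be told apart, and a signal is a share of an array's total rather than an amount per embryo.

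Zp3 and Zp2 were bright in oocytes and had nearly disappeared by the blastocyst, and Zp1 followed the same course at its own probe set. Figla was above the filter value on all arrays of oocytes and of no other stage, and Nobox was near or below the filter throughout. Changes are differences of mean log2(signal + 11) ± SE from limma, the later stage minus the earlier one, and 11 is the offset that keeps dim signals from dominating. This scale understates changes of dim genes, and a fold that involves a signal near background depends on the offset. Adjusted p-values are Benjamini-Hochberg values over all 8067 probe sets. A probe set was called when its adjusted p was below 0.05.

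**Figure D1:**
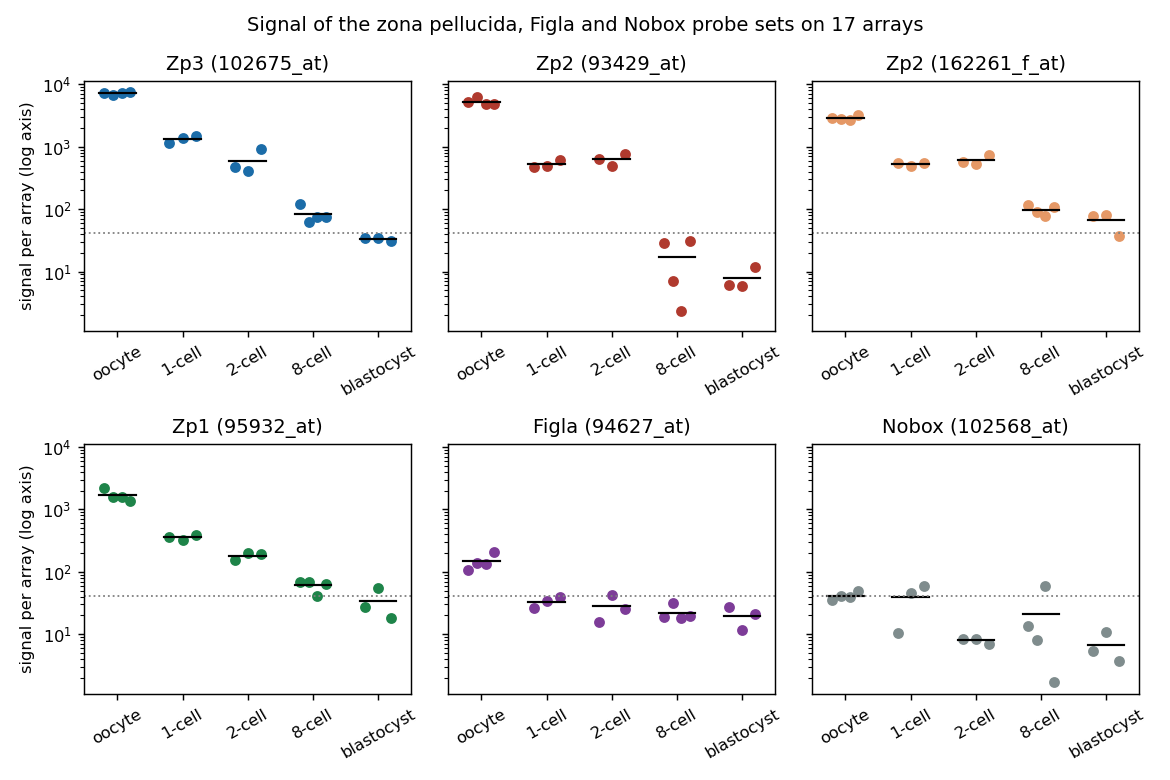
Signal of each probe set on every array (log axis) by stage, with points for arrays, black lines for stage means and a dotted line for the filter value of 41.1. Zp3 and Zp2 sit far above the dotted line on the oocyte arrays and below the dotted line on the blastocyst arrays, apart from 2 blastocyst arrays of the second Zp2 probe set, and Nobox lies near or under the line at every stage.

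Zp3, a main filament protein that takes part in sperm binding, had signals of 7247, 6749.7, 7352 and 7428 on the oocyte arrays, 1162, 1393 and 1481 on the 1-cell arrays and 477, 410.0 and 913 on the 2-cell arrays. The 8-cell arrays gave 120.2, 62.2, 74.2 and 74.4, and the blastocyst arrays gave 34.1, 34.0 and 31.4. Every stage lay below the one before it, with no overlap between consecutive stages. The oocyte arrays were close to each other (7194 ± 306, SD, n = 4), while 2-cell array 3 stood above the other two arrays of its stage.

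Zp2 encodes the protein that binds sperm and is cleaved by ovastacin after fertilisation. At its brighter probe set, signals were 5282, 6201, 4811 and 4797 on oocyte arrays, 482, 486 and 617 on 1-cell arrays and 625, 492 and 758 on 2-cell arrays. The same probe set gave 28.3, 7.1, 2.3 and 30.6 on 8-cell arrays and 6.1, 5.8 and 11.8 on blastocyst arrays. The 1-cell and 2-cell arrays overlapped, as did the 8-cell and blastocyst arrays, so that Zp2 stood at a high, a middle and a very low level.

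The second Zp2 probe set, whose suffix _f_at marks probes that can be shared within a sequence family, gave 2901, 2792, 2647 and 3222 in oocytes, 550.2, 496 and 545 in 1-cell embryos and 570.1, 532 and 745 in 2-cell embryos. It gave 117.0, 90.3, 76.5 and 107.7 in 8-cell embryos and 78.7, 81.5 and 37.3 in blastocysts. Its arrays overlapped between the same stages, although blastocysts were called lower than 8-cell embryos (-0.55, limma adjusted p = 0.0335). In 8-cell embryos and blastocysts it kept 3.39% ± 0.624 and 2.28% ± 0.856 of its oocyte mean (SD, n = 4 and 3), where the brighter probe set kept 0.324% ± 0.274 and 0.150% ± 0.0641. Whether the remaining signal of the second probe set comes from Zp2 was not tested.

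Zp1, whose product crosslinks the filaments, had signals of 2202, 1593, 1605 and 1357 on oocyte arrays, 357, 326 and 392 on 1-cell arrays and 156, 200.7 and 191 on 2-cell arrays. It had 69.4, 69.3, 41.5 and 64.9 on 8-cell arrays and 27.5, 55.4 and 18.0 on blastocyst arrays. The first 4 stages did not overlap one another, and blastocyst array 2 lay within the 8-cell range.

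Figla had signals of 107.1, 140.6, 132.3 and 209.3 in oocytes, and 26.7, 33.6 and 39.6 in 1-cell embryos. In 2-cell embryos it had 15.7, 43.0 and 25.7, in 8-cell embryos 18.6, 31.2, 18.0 and 19.7, and in blastocysts 27.0, 11.6 and 21.0. The oocyte arrays lay above all 13 embryo arrays, whose stages overlapped, and 1 of those 13 was above the filter value. Since Figla passed the filter mainly through the oocyte arrays, its later values only bound how low it went.

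Nobox gave 36.0, 41.5, 39.0 and 49.5 in oocytes, 10.5, 46.6 and 59.8 in 1-cell embryos and 8.4, 8.5 and 7.0 in 2-cell embryos. It gave 13.5, 8.2, 60.1 and 1.7 in 8-cell embryos and 5.3, 10.9 and 3.7 in blastocysts. Its highest value of all was that of 8-cell array 3, and 5 of 17 arrays lay above the filter value, so that its level is known only roughly at any stage.

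The comparison of 1-cell embryos with oocytes held the first large loss. It spans fertilisation, and since the maturation state of the oocytes is not stated, it may span more than that. Figla is left aside in this count, because the filter kept it for its oocyte level and so favoured a fall. Of the other 5 probe sets 4 fell and 0 rose, and the same 4 had all 1-cell arrays below all oocyte arrays. Over all probe sets tested, 19.8% fell by the same call, and 22.9% had all 1-cell arrays below all oocyte arrays. The brighter Zp2 probe set had the largest change of these 5, at 528 ± 77.1 in 1-cell embryos and 5273 ± 658 in oocytes (SD, n = 3 and 4), a log2 change of -3.29 ± 0.29 (95% CI -3.91 to -2.68, limma adjusted p = 1.37e-08). Its second probe set changed by -2.42 ± 0.20.

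Zp3 fell 5.34-fold, averaging 1345 ± 164 in 1-cell embryos and 7194 ± 306 in oocytes (-2.42 ± 0.22, limma adjusted p = 1.65e-08). Zp1 averaged 358 ± 32.9 and 1689 ± 360.2 in the same order, a 4.54-fold fall (-2.18 ± 0.24, adjusted p = 2.21e-07). Figla averaged 33.3 ± 6.46 in 1-cell embryos and 147 ± 43.7 in oocytes, a change of -1.81 ± 0.28 that describes a gene kept by the filter for its oocyte level. With no filter on dim probe sets, Figla was called as well (-1.81, limma adjusted p = 6.97e-05). Nobox was not called (-0.23 ± 0.44, 95% CI -1.15 to 0.68, adjusted p = 0.729), and its 1-cell arrays lay on both sides of the oocyte range. Without 1-cell array 1 the Nobox change was 0.29 (adjusted p = 0.691). The median change over the 5 probe sets other than Figla was -2.42, against 0.04 over all probe sets tested.

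The arrays carried the authors' scaling to a common mean. As an alternative, each array was scaled on 9 probe sets of hybridisation spikes. Such spikes enter after the 2 rounds of in vitro transcription and give no amount per embryo. The spike factors varied within a stage, from 0.496 to 1.12 on the 1-cell arrays. With this scaling, the median change of all probe sets between 1-cell embryos and oocytes was -0.89. Relative to that median, Zp3 changed by -2.65, Zp2 by -3.53 at its brighter probe set and Zp1 by -2.41, so that the zona genes still lay far below the typical probe set. Figla, which the filter kept for its oocyte level, changed by -1.88 relative to the same median. Nobox was called under this scaling (-1.03, adjusted p = 0.0270) but lay only 0.14 below the median (-0.14).

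**Figure D2:**
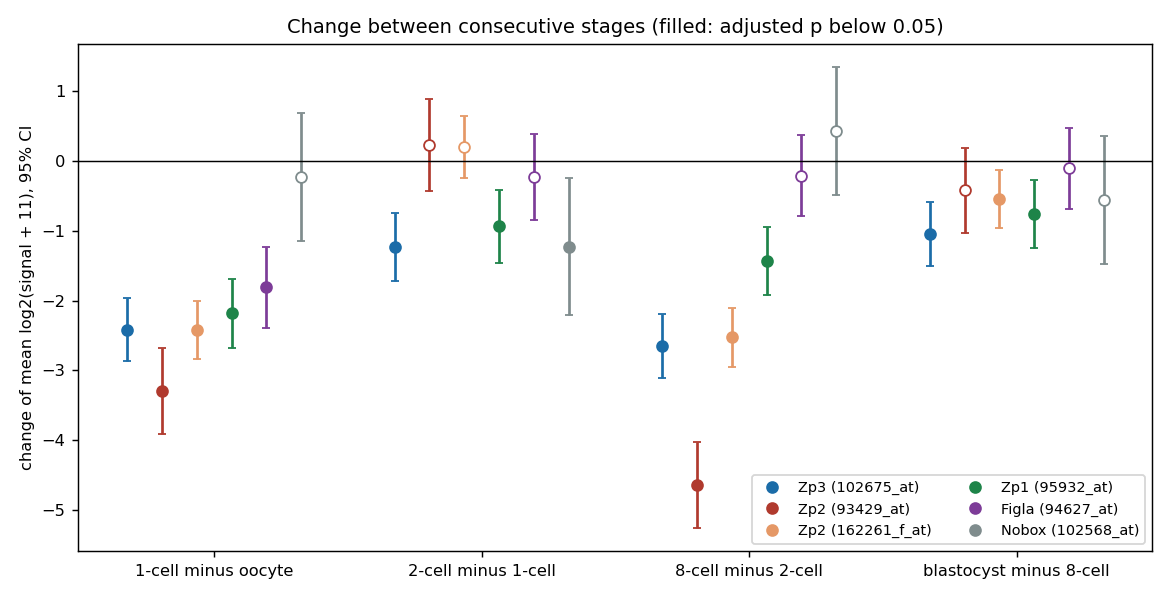
Change of mean log2(signal + 11) between consecutive stages for each probe set, later minus earlier, with 95% confidence intervals, filled where the adjusted p was below 0.05. In the step from the 1-cell to the 2-cell stage both Zp2 probe sets lie just above 0 (0.23 and 0.20), while Zp3 (-1.23) and Zp1 (-0.94) lie below it.

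Between 2-cell and 1-cell embryos, the time of the main activation of the mouse embryo's own genome, Zp3 and Zp1 fell, and Zp2 was not called. Zp3 fell 2.35-fold, with 599.8 ± 273 in 2-cell embryos and 1345 ± 164 in 1-cell embryos (SD, n = 3 each, log2 change -1.23 ± 0.23, limma adjusted p = 1.43e-04). Zp1 fell 1.91-fold, with 183 ± 23.6 and 358 ± 32.9 in the same order (-0.94 ± 0.25, adjusted p = 0.00394). Zp2 was not called at either probe set: 625 ± 133 at the 2-cell and 528 ± 77.1 at the 1-cell stage for the brighter one (0.23 ± 0.31, 95% CI -0.43 to 0.88, adjusted p = 0.596) and 616 ± 113 and 530.5 ± 29.7 at the second (0.20 ± 0.22, adjusted p = 0.488). With each array centred on its median these were -0.05 and -0.08, both not called.

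Figla had a change of -0.23 ± 0.30 between 2-cell and 1-cell embryos (adjusted p = 0.569) at signals near background. Nobox fell (-1.23 ± 0.47, adjusted p = 0.0365), but the call rested on single arrays: it ended without 1-cell array 2 (adjusted p = 0.129) or 3 (0.172) and without 2-cell array 1 (0.0662), 2 (0.0700) or 3 (0.0843). In all, 3 of 6 probe sets fell and 0 rose, against 21.2% of all probe sets that fell. The Zp1 call ended with the spike scaling (-0.72, adjusted p = 0.124), under which Zp1 lay 0.94 below the median of all probe sets (-0.94).

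Whether the probe sets of the zona genes changed unequally was tested, with the brighter one for Zp2, on their differences within each array. These differences do not depend on how an array was scaled apart from the offset. Each of the 3 pairs of probe sets differed between the stages by a permutation test of the F statistic over 17 arrays (100000 resamples, adjusted over the 3 pairs). The adjusted p was 6e-05 for Zp2 minus Zp3, 6e-05 for Zp2 minus Zp1 and 2.5e-04 for Zp1 minus Zp3. A further test that was not planned, also with the brighter Zp2 probe set only, took the oocyte, 1-cell and 2-cell arrays alone. On every one of these arrays all 3 genes were above the filter. This permutation test gave adjusted p = 0.00465 for Zp2 minus Zp3, 0.0223 for Zp2 minus Zp1 and 0.275 for Zp1 minus Zp3. The difference between Zp1 and Zp3 was thus called only with the 8-cell and blastocyst arrays included, on which both were dim. The brighter Zp2 probe set was above the filter value on no 8-cell or blastocyst array. Both Zp2 probe sets also changed unequally, by -3.29 (brighter) and -2.42 (second) from oocyte to 1-cell embryo. A difference between probe sets therefore need not be one between genes.

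The log2 difference Zp2 minus Zp3 averaged -0.45 ± 0.23 in oocytes, -1.33 ± 0.14 in 1-cell embryos and 0.13 ± 0.34 in 2-cell embryos (SD, n = 4, 3 and 3) and was lowest of these 3 stages in 1-cell embryos. From oocyte to 1-cell embryo it changed by -0.88 and from 1-cell to 2-cell embryo by 1.46, and the arrays did not overlap in either step. The first of these changes was not seen at the second Zp2 probe set. There Zp2 minus Zp3 averaged -1.32 ± 0.22 in 1-cell embryos and -1.32 ± 0.11 in oocytes, with overlap, and then changed by 1.43 to the 2-cell embryo, without overlap. The exact two-sided permutation tests for the brighter probe set gave p = 0.0571 and p = 0.1, the smallest these array numbers allow (adjusted p = 0.137 and 0.171 over 12 such comparisons, which were chosen after the values were seen). Zp2 minus Zp1 had changes of -1.11 and then 1.16 at the brighter probe set, again without overlap, and of -0.24, with overlap, and then 1.13 at the second. Zp1 minus Zp3 averaged -2.11 ± 0.30, -1.87 ± 0.19 and -1.58 ± 0.60 over the same 3 stages, which overlapped.

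**Figure D3:**
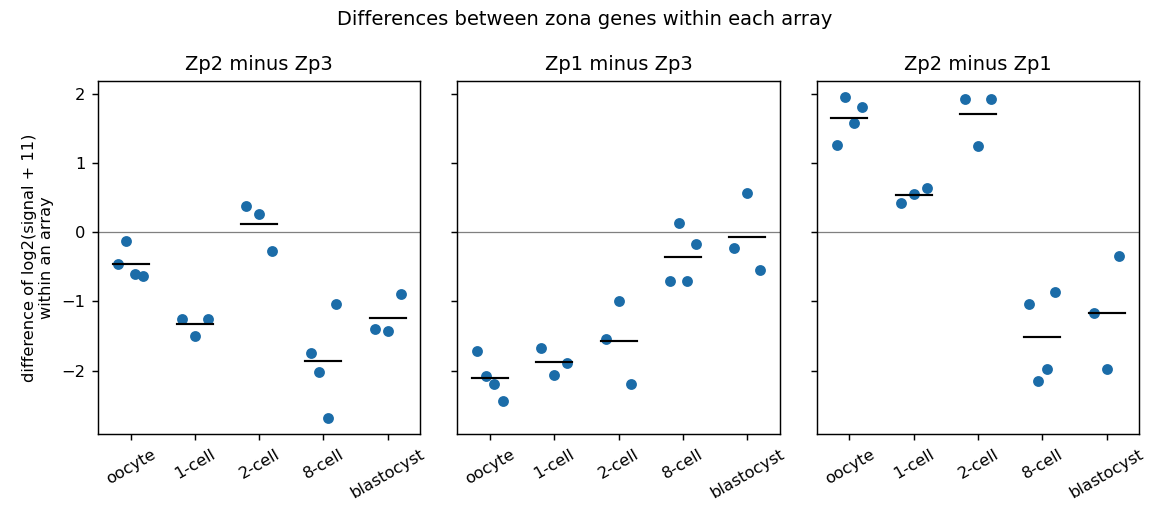
Difference of log2(signal + 11) between 2 zona genes within each array, by stage, with black lines for stage means and Zp2 by its brighter probe set. With that probe set, Zp2 minus Zp3 is lower on the 1-cell arrays (-1.50 to -1.25) than on the oocyte and 2-cell arrays, while with the second one the oocyte and 1-cell arrays overlap, and Zp1 minus Zp3 lies between -2.44 and -0.99 on the arrays of those 3 stages.

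Between 8-cell and 2-cell embryos the zona transcripts fell again. Of the 6 probe sets 4 fell and 0 rose, against 28.3% of all probe sets that fell. Zp2 averaged 17.1 ± 14.5 in 8-cell embryos (n = 4) and 625 ± 133 in 2-cell embryos (n = 3), a change of -4.64 ± 0.29 (limma adjusted p = 1.92e-11) whose size depends on the offset, since no 8-cell array was above the filter. Its second probe set fell by 2.53 ± 0.20, to 97.9 ± 18.0 in 8-cell embryos. Zp3 averaged 82.8 ± 25.6 and 599.8 ± 273 in the same order, a 6.28-fold fall (-2.65 ± 0.22, adjusted p = 1.28e-09). Zp1 averaged 61.3 ± 13.3 and 183 ± 23.6, a 2.70-fold fall (-1.44 ± 0.24, adjusted p = 2.34e-05). Figla (-0.21 ± 0.28, adjusted p = 0.559) and Nobox (0.43 ± 0.44, adjusted p = 0.438) were not called. Without 8-cell array 3 the Nobox change was -0.06, and without 2-cell array 2 that of Figla was 0.05.

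Between blastocysts and 8-cell embryos, 3 of 6 probe sets fell and 0 rose, against 20.7% of all probe sets that fell, and all 3 were dim by then. Zp3 averaged 33.2 ± 1.53 in blastocysts and 82.8 ± 25.6 in 8-cell embryos (SD, n = 3 and 4) and fell 2.07-fold (-1.05 ± 0.22, adjusted p = 5.19e-04). Zp1 averaged 33.6 ± 19.4 and 61.3 ± 13.3 in the same order (-0.76 ± 0.24, adjusted p = 0.0127), a call that ended without blastocyst array 3 (-0.49, adjusted p = 0.117). The second Zp2 probe set averaged 65.8 ± 24.8 and 97.9 ± 18.0 (-0.55 ± 0.20, adjusted p = 0.0335), a call that was lost without 8-cell array 1 (adjusted p = 0.0936) or 4 (0.0695), without blastocyst array 3 (0.324) or with the replicate block (0.0644). The brighter Zp2 probe set (-0.42 ± 0.29, adjusted p = 0.266) was called without 8-cell array 3 (-0.73, adjusted p = 0.0285). With the spike scaling no member was called in this step, and the median of all probe sets was 0.90. Zp1 and both Zp2 probe sets then had changes above 0 (0.17, 0.12 and 0.48) that lay below that median.

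Over the whole course, blastocysts against oocytes, all 5 probe sets other than Figla fell, against 32.1% of all probe sets. Zp3 averaged 33.2 ± 1.53 in blastocysts and 7194 ± 306 in oocytes (n = 3 and 4), a change of -7.35 ± 0.22 (limma adjusted p = 4.84e-17). The brighter Zp2 probe set averaged 7.90 ± 3.38 and 5273 ± 658 in the same order (-8.13 ± 0.29, adjusted p = 1.09e-15) and Zp1 33.6 ± 19.4 and 1689 ± 360.2 (-5.32 ± 0.24, adjusted p = 2.82e-14). The sizes of these 3 changes depend on the offset, since of the 3 blastocyst arrays none was above the filter for Zp3 and the brighter Zp2 probe set, and 1 was for Zp1. Figla (-2.35 ± 0.28, limma adjusted p = 7.32e-07 with no filter) and Nobox (-1.59 ± 0.44, adjusted p = 0.00334) fell less far on this scale, from signals that were dim at the start. By the 2-cell stage the 5 probe sets other than Figla had already fallen against oocytes, where 23.2% of all probe sets fell. Zp3 changed by -3.65 ± 0.22, Zp1 by -3.12 ± 0.24 and Nobox by -1.46 ± 0.44. Zp2 changed by -3.07 ± 0.29 at its brighter and -2.22 ± 0.20 at its second probe set. Figla, which the filter kept for its oocyte level, changed by -2.04 ± 0.28.

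As shares of the oocyte mean, Zp3 stood at 18.7% ± 2.29 in 1-cell embryos, 8.34% ± 3.8 in 2-cell embryos and 1.15% ± 0.356 in 8-cell embryos. Zp1 stood at 21.2% ± 1.95, 10.8% ± 1.40 and 3.63% ± 0.790 at the same stages, and Zp2 at 10.02% ± 1.46, 11.9% ± 2.52 and 0.324% ± 0.274 by its brighter probe set (SD, n = 3, 3 and 4). By its second probe set Zp2 stood higher, at 18.4% ± 1.03, 21.3% ± 3.92 and 3.39% ± 0.624. For Zp3 and Zp1 the levels were ordered oocyte, 1-cell, 2-cell and 8-cell from high to low without overlap. Blastocysts came last by their means, but for Zp1 they overlapped the 8-cell arrays, and for neither gene did this last step stay called with the spike scaling. For Zp2 the 1-cell and 2-cell stages were neighbours that did not differ beyond their spread, as were 8-cell embryos and blastocysts at the brighter probe set. For Figla only the oocyte stood apart, and for Nobox the oocyte and the 1-cell embryo did not differ beyond their spread.

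Genes that have been reported to depend on Figla or Nobox in the mouse ovary were measured beside them. Of 12 such genes listed, 7 had a probe set of their own and passed the filter. In 1-cell embryos against oocytes 1 of these fell, 3 rose and 3 were not called, where 19.8% of all probe sets fell and 1397 of 8067 rose. The median change of the 7 was 0.51, against 0.04 over all probe sets tested and -2.42 over the zona and Nobox probe sets. The difference between these groups of genes was not tested. With the spike scaling 2 of the 7 fell and 0 rose, where 57.4% of all probe sets fell (median -0.58, against -0.89 over all probe sets).

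Gdf9, a growth factor that signals to granulosa cells, averaged 10731 ± 1240 in 1-cell embryos and 7660 ± 351 in oocytes (SD, n = 3 and 4, 0.48 ± 0.15, limma adjusted p = 0.0147). That call ended without 1-cell array 1 (0.40, adjusted p = 0.0822), and the change was -0.65 with the spike scaling and -0.29 after quantile normalization. H1f8, the linker histone of the oocyte, changed by 0.90 ± 0.22 (adjusted p = 0.00217) and Rfpl4, an oocyte RING finger protein, by 0.92 ± 0.30 (adjusted p = 0.0184). With the spike scaling these were -0.23 and -0.21, and with quantile normalization 0.36 and 0.45, in both cases not called. The Rfpl4 call also ended without 1-cell array 1 (adjusted p = 0.0560) or 2 (0.0504). Mos, the kinase that holds the egg in meiosis, was the one that fell, with 2099 ± 97.1 in 1-cell embryos and 3883 ± 309 in oocytes (-0.88 ± 0.28, adjusted p = 0.0181), but not without 1-cell array 2 (-0.85, adjusted p = 0.0586).

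In the step to the 2-cell embryo, 6 of these 7 genes fell and 0 rose, where 21.2% of all probe sets fell (median -1.93, against 0.06 over all probe sets tested). The changes were -2.70 ± 0.16 for Gdf9, -4.74 ± 0.23 for H1f8, -3.98 ± 0.30 for Mos and -1.93 ± 0.32 for Rfpl4. In the step to the 8-cell embryo 6 fell and 1 rose, where 28.3% of all probe sets fell and 2083 of 8067 rose (median -2.62, against -0.06). The one that rose was Pou5f1, a pluripotency factor that the embryo goes on to use, with 725 ± 59.4 at the 8-cell and 360 ± 88.5 at the 2-cell stage (1.01 ± 0.20, adjusted p = 2.31e-04), though with the spike scaling it was not called (0.37, adjusted p = 0.390).

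**Figure D4:**
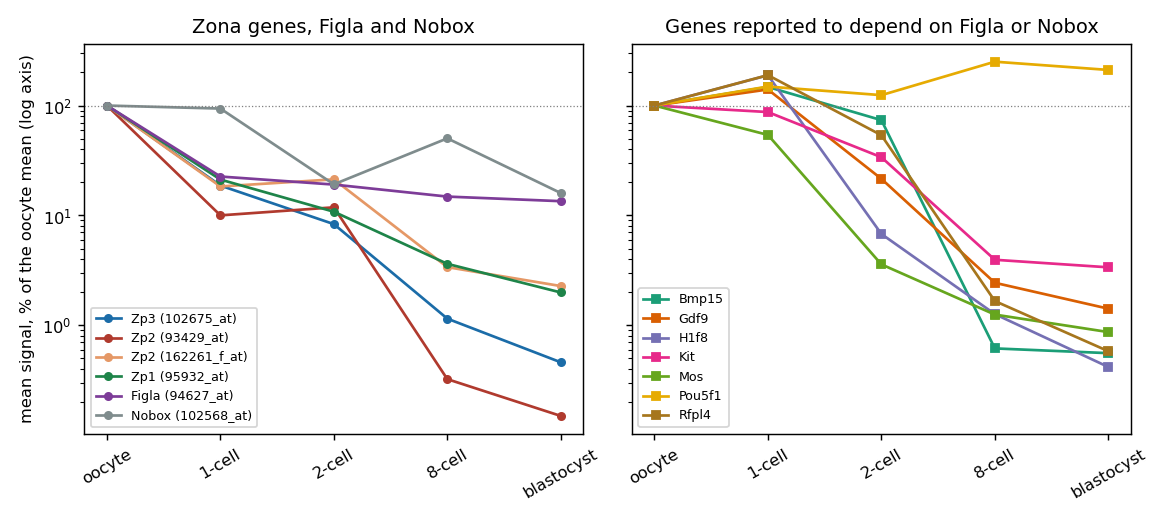
Mean signal at each stage as a percentage of the oocyte mean (log axis), for the zona, Figla and Nobox probe sets on the left and for 7 genes reported to depend on Figla or Nobox on the right. At the 1-cell stage the zona genes and Figla lie between 10.02% and 22.6% and Nobox at 93.9%, while 5 of the 7 genes on the right lie above their oocyte mean, on the authors' scaling.

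Other regulators of the oocyte and partners of FIGLA were measured for 6 of 10 listed genes. In 1-cell embryos against oocytes 1 of the 6 fell and 1 rose, where 19.8% of all probe sets fell and 1397 of 8067 rose. These counts were near the shares of all probe sets. With the spike scaling 4 fell and 0 rose, where 57.4% of all fell and 30 of 8067 rose. In 8-cell against 2-cell embryos 3 fell and 0 rose, where 28.3% of all fell and 2083 of 8067 rose. Lhx8, a LIM homeobox factor of early oocytes, averaged 1080 ± 105.4 in 1-cell embryos and 1551 ± 90.5 in oocytes (-0.52 ± 0.25, adjusted p = 0.116). This change was called with the spike scaling (-1.65, adjusted p = 8.83e-05), with an offset of 50 (-0.51, adjusted p = 0.0210) and with only these 2 stages in the fit (adjusted p = 0.00404). Its change between 8-cell and 2-cell embryos was larger, with 18.7 ± 11.8 at the 8-cell and 544 ± 179 at the 2-cell stage (-4.27 ± 0.25, adjusted p = 7.34e-12). Tcf3, the E protein known as the partner of FIGLA, had means between 83.7 and 116.6 at all stages and was called in none of the consecutive comparisons. It was called with the spike scaling in 1-cell embryos against oocytes (-1.19, adjusted p = 0.00248) and in blastocysts against 8-cell embryos (1.09, adjusted p = 0.00468), where the medians of all probe sets were -0.89 and 0.90, and without 1-cell array 3 in 2-cell against 1-cell embryos (0.64, adjusted p = 0.0406). Tcf12, another E protein, averaged 345 ± 26.2 at the 2-cell and 34.4 ± 2.79 at the 1-cell stage (2.97 ± 0.31, adjusted p = 4.48e-08). Foxo3, which keeps primordial follicles dormant, averaged 732 ± 226 in 1-cell embryos and 302 ± 35.3 in oocytes (1.21 ± 0.18, adjusted p = 1.71e-05), but only 0.10 and not called with the spike scaling.

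Genes that process the zona or act at the egg surface were measured for 9 of 12 listed, of which 8 passed the filter. In 1-cell embryos against oocytes 1 of these 8 fell and 0 rose, in 2-cell against 1-cell embryos 2 fell and 2 rose, and in 8-cell against 2-cell embryos 1 fell and 3 rose. Over all probe sets tested, 19.8%, 21.2% and 28.3% fell in these steps, and 1397, 2096 and 2083 of 8067 rose. With the spike scaling 7 fell in the first of these steps, under which 57.4% of all probe sets fell and the median of all was -0.89. Cd9, a tetraspanin of the egg membrane needed for fusion with sperm, averaged 181 ± 54.5 in 1-cell embryos and 477 ± 54.1 in oocytes (-1.38 ± 0.20, adjusted p = 1.12e-05), and rose by 1.12 ± 0.21 and 2.30 ± 0.20 in the following 2 steps. Furin, a protease of the family that cleaves zona proteins on their way out of the cell, averaged 230.5 ± 20.0 at the 2-cell and 796 ± 70.6 at the 1-cell stage (-1.74 ± 0.18, adjusted p = 6.74e-08). Plat, the tissue plasminogen activator, averaged 447 ± 135 and 4467 ± 237 in the same order (-3.33 ± 0.27, adjusted p = 1.38e-09).

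Ovgp1, the oviduct glycoprotein that binds to the zona, had signals of 1272, 715 and 688 on the 2-cell arrays and 28.8, 48.6 and 56.4 on the 1-cell arrays (4.00 ± 0.99, adjusted p = 0.00199). On the 8-cell arrays it had 106.6, 6212, 114.1 and 43.1, so that 1 array stood far above the others. Without that array its change between 8-cell and 2-cell embryos was -3.23 (adjusted p = 6.28e-08), against -1.71 (adjusted p = 0.129) with it.

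Genes with a zona pellucida domain that are not egg coat genes were mostly dim. Of 9 listed, 7 had a probe set and 4 passed the filter. In 1-cell embryos against oocytes 2 of the 4 fell and 0 rose, where 19.8% of all probe sets fell (median -0.25, against 0.04 over all probe sets tested). Dmbt1, a secreted mucosal glycoprotein, averaged 59.2 ± 12.8 in 1-cell embryos and 184 ± 18.3 in oocytes (-1.49 ± 0.26, adjusted p = 1.09e-04). Eng, a coreceptor of the transforming growth factor beta family, was the other one called lower (-0.77 ± 0.27, adjusted p = 0.0289), which was lost without oocyte array 3 (adjusted p = 0.0692) or 4 (0.0617), without 1-cell array 1 (0.0505) or 2 (0.279) and with quantile normalization (0.0670). Tecta, of the inner ear's tectorial membrane, and the coreceptor gene Tgfbr3 changed by 0.27 ± 0.24 and 0.62 ± 0.34 and were not called.

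Across the 17 arrays, the log2 signals of the zona genes correlated with each other at Pearson's r of 0.955 to 0.981 (brighter Zp2 probe set), with Figla at 0.807 to 0.865 and with Nobox at 0.506 to 0.639. These values describe arrays that share their stage and scaling, so the order of the stages alone gives high correlations. Among 6042 genes, those most like Zp3 were Polr2d, a subunit of RNA polymerase II (r = 0.985), Mbl2, a mannose-binding lectin (0.979), and Bmpr1b, a receptor of bone morphogenetic proteins (0.978). Those most like Zp2 were Pparg, a nuclear receptor (0.986), Ube2g1, a ubiquitin-conjugating enzyme (0.969), and Esr2, an estrogen receptor (0.969). Among those most like Zp1 were Polr2d (0.979) and Ppp2r2b, a regulatory subunit of protein phosphatase 2A (0.977).

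Figla was matched best by Cyb5a, a cytochrome b5 (r = 0.949 over 17 arrays), Mocos, a molybdenum cofactor sulfurase (0.942), and Prss12, a serine protease (0.930). As genes chosen for their likeness to Figla, they are bound to be bright in oocytes. Nobox had no close match, with Il10rb, an interleukin receptor chain, at r = 0.800, Btrc at 0.799 and Baiap2l1 at 0.797.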

How the data were processed

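The deposited signal intensity values, 1 per probe set and array on a linear scale, were used. Per the labels, RNA was amplified by 2 rounds of in vitro transcription. What software and scaling target the authors used is not given in the sources used here. The mean of the middle 96% of values was 150.10 to 150.13 on every array, so no further scaling was applied. The table held no detection calls, and the number of arrays limits the precision.

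Values were taken as log2(signal + 11), 11 being the 25th percentile of the whole table. Testing took probe sets above the table's median, 41.1, on at least 3 arrays, without 66 controls. A mean per stage was fitted over 17 arrays with limma 3.58.1 in R 4.3.3 (intensity trend, 12 residual degrees of freedom), tested on simulated data. Symbols came from the platform annotation, updated by Entrez ID, and the probe set with the highest mean signal stood for a gene. Named genes were all members, the 3 genes most correlated with each member (1 is not reported here), and up to 4 per list by mean signal. Pou5f1, Ltf, Fshr, Nr5a2, Amh, Inha and single genes that made up small counts were named after their values were seen. Members and lists were chosen with earlier results of these data known. The alternatives were other scalings, offsets, filters, fits and arrays left out. Lists were drawn up for oocyte, cumulus and granulosa, oviduct and uterus, trophectoderm and sperm cells, and 4 for the pathway. The summed signal of the trophectoderm markers was 7065 to 8794 on blastocyst arrays and 163 to 209 on oocyte arrays. Of 3 tested sperm markers 1 fell and 0 rose, and of 4 tested oviduct and uterus markers 0 fell and 0 rose, in 1-cell embryos against oocytes, where 19.8% of all probe sets fell. In 2-cell against 1-cell embryos 2 of these 4 oviduct and uterus markers, Ovgp1 and Ltf, rose and 0 fell, where 2096 of all 8067 rose. The Ltf call (2.54, limma adjusted p = 0.0266) ended without 1-cell array 1 (0.0817) or 2 (0.102) or 2-cell array 1 (0.0820).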

Additional observations from a re-analysis of the deposited data

Results flagged for a closer look

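Zp1 on the 8-cell arrays had a lowest value of 41.5, apart from the other arrays at 64.9 to 69.4. Figla on the 8-cell arrays had a highest value of 31.2, apart from the other arrays at 18.0 to 19.7. Both gaps exceeded Dixon's critical value of 0.829 for 4 samples (0.839 and 0.871 of the range). The test was made on 12 groups of 4 arrays, and chance marks about 1 in 20. Both signals are near or below the filter value, and Figla's change between blastocysts and 8-cell embryos was 0.02 without that array, against -0.11 with it.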

How the results depend on the processing

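The falls of Zp1, both Zp2 probe sets, Zp3 and Figla in 1-cell embryos, 2-cell embryos and blastocysts against oocytes, and those of the zona genes in 8-cell against 2-cell embryos, kept their direction and call under every alternative run, with each array left out included. Leaving single arrays aside, 331 values of members kept direction and call, 7 turned, 9 lost their call and 1 gained one. Spike scaling ended the calls of Zp3 (-0.073) in blastocysts against 8-cell embryos and of Zp1 (-0.72) in 2-cell against 1-cell embryos. In blastocysts against 8-cell embryos it turned Zp1 (0.17), Zp2 at the second (0.48) and the brighter probe set (0.12) and the uncalled Figla (0.64, and 0.0499 with quantile normalization), and it made the Nobox change from oocyte to 1-cell embryo a call (-1.03). Median centring turned the uncalled Zp2 changes between 2-cell and 1-cell embryos (-0.078 and -0.050). The Nobox call in that step ended with an offset of 1 (-1.85) and with no filter (-1.23). In blastocysts against 8-cell embryos, the call of the second Zp2 probe set ended with an offset of 50 (-0.37), no intensity trend (-0.55), the replicate block (-0.50) and only the 2 stages compared (-0.55), and that of Zp1 ended with only the 2 stages (-0.76). The F over stages for Zp1 minus Zp3 was 1.57 with the first 3 stages alone. The cause was not tested.

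With 1 array left out, the ranges for the results that changed were -0.57 to 0.29 (Nobox, 1-cell minus oocyte), -1.75 to -0.89 (Nobox, 2-cell minus 1-cell), -0.063 to 0.77 (Nobox, 8-cell minus 2-cell), -0.49 to 0.017 (Figla, 2-cell minus 1-cell), -0.46 to 0.053 (Figla, 8-cell minus 2-cell) and -0.27 to 0.10 (Figla, blastocyst minus 8-cell). For blastocyst minus 8-cell they were -1.09 to -0.49 for Zp1, -0.71 to -0.24 for the second and -0.73 to -0.18 for the brighter Zp2 probe set. Over all probe sets, spike scaling gave 4631 lower and 30 higher between 1-cell embryos and oocytes (1597 and 1397 with the authors' scaling), 888 lower and 1912 higher between 2-cell and 1-cell embryos (1714 and 2096), 3237 lower and 842 higher between 8-cell and 2-cell embryos (2281 and 2083), 193 lower and 4636 higher between blastocysts and 8-cell embryos (1672 and 1760), 3743 lower and 777 higher between 2-cell embryos and oocytes (1873 and 2085), and 2994 lower and 1864 higher between blastocysts and oocytes (2587 and 2597). With median centring the split between 2-cell and 1-cell embryos was 2434 lower and 1614 higher, and between 2-cell embryos and oocytes 2360 and 1574. Same-numbered arrays of different stages had deviations that correlated at -0.08 to 0.13, and differently numbered ones at -0.27 to 0.36. Of 17 arrays, 2 matched their own number best, so these values showed no sign of pairing by number. Shared animals or batches were not tested. The replicate block changed no other member call. Figla and Nobox gave no value under the stricter filter.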

Other observations

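On the 8-cell array with the high Ovgp1 signal, 8-cell array 2, Ltf, which encodes the secreted protein lactotransferrin, had a signal of 827.7, against 11.4, 10.4 and 6.0 on the other 8-cell arrays. On the same array the zona genes Zp1 (69.3), Zp3 (62.2) and Zp2 (7.1) were within or close to the range of the other 8-cell arrays, and Figla was at its highest value of the stage (31.2). On the 2-cell arrays Ltf had 291.1, 170.7 and 167.1, against 16.4, 10.9 and 72.5 on the 1-cell arrays. Ltf and Ovgp1 are both on the list of oviduct and uterus markers. Whether their signals came from oviduct material was not tested.

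Within stages, the array with the most members at their highest signal was oocyte array 4 (4 of 6 probe sets), 1-cell array 3 (5 of 6), 8-cell array 1 (3 of 6) and blastocyst array 2 (3 of 6), while 1-cell array 1, 8-cell array 3 and blastocyst array 3 each had 4 of 6 at their lowest. On oocyte array 4, Figla was highest of its stage (209.3) and Zp1 lowest (1357).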
